A study of Rattus norvegicus with 4 samples.

Results

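Antiviral genes that type I interferon induces were followed in cultured rat astrocytes, a glial cell type that supports neurons. The list has 37 genes, 36 antiviral and interferon-induced genes and Ifnb1, which encodes the type I interferon β itself. A gene was measured where a probe of the array carried its symbol, current or older, and no other, and the probe with the highest mean stood for a gene with more than 1. That gave 35 of the 37 genes, out of 18166 genes in all, with Ddx58 listed under its other name Rig1. No probe with the single symbol Eif2ak2 or Bst2 was found, and both genes were not analysed here. Of the 35, 34 had a log2 signal of at least 5.83, the table's median value, in 1 array or more and entered the counts below, as did 11790 genes in all.

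The cells came from the cerebral cortex of Sprague-Dawley rats aged 1 day, were kept in serum-free medium for 2 days to deplete microglia and meningeal cells, and had 1 array for each of 4 cultures. The first culture had an siRNA against SHP and was given interferon-γ (IFN-γ), a cytokine of lymphocytes, together with the compound that the labels call GW. The second had a control siRNA and the same IFN-γ and GW. The third had control siRNA and IFN-γ alone, and the fourth had control siRNA and no treatment. All 4 had thus been transfected with an siRNA, and treatment lasted 3 h. The series set these cultures side by side to see how GW and the SHP siRNA alter the IFN-γ response. GW without IFN-γ and SHP siRNA without GW were not analysed here. With 1 array a group there is no replicate check, no p-value can be given, and a difference between treatments cannot be told apart from a difference between single cultures or arrays.

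Type I interferons are released by infected cells, bind the receptor of Ifnar1 and Ifnar2, and act through a transcription factor complex called ISGF3. ISGF3 binds the interferon-stimulated response element (ISRE), a repeat of GAAA letters, beside genes that block viral entry, RNA and assembly. IFN-γ has its own receptor, works mainly through another DNA element, the gamma-activated site (GAS), and induces IRF1, so that part of the antiviral programme can answer to both. Ifnb1 is induced when sensors of viral RNA or other stimuli activate IRF3, NF-κB and AP-1.

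The arrays had medians from 5.79 to 5.87 over 29489 probes. The SHP gene Nr0b2 had log2 signals of 3.45 with SHP siRNA, IFN-γ and GW, 5.20 with IFN-γ and GW, 5.14 with IFN-γ and 5.33 untreated. The SHP siRNA culture was lowest, but all 4 values lay below the table median, where background may weigh on them. Of 12 listed astrocyte markers 10 had a probe and all 10 passed the filter. Gfap, the intermediate filament of astrocytes, stood between 12.03 and 12.11 in all cultures. Of 19 microglia markers, 17 had a probe and all 17 also passed the filter. Their summed signal, with log2 values turned back to a linear scale, was 10361 with SHP siRNA, IFN-γ and GW and 9349 with IFN-γ and GW. It was 13066 with IFN-γ alone and 16550 untreated. In such bulk samples, fewer cells of a type and less RNA per cell cannot be told apart.

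Signal from most antiviral genes was already strong in the untreated culture. There 33 of the 35 lay above the table median, the exceptions being Ifnb1 at 5.07 and Ifit1 at 3.08, and 30 lay above 8.28, the upper quartile of all genes on that array. Of the 35, 14 lay above 10.09, its 95th percentile. The counts above the 95th percentile were 16 with SHP siRNA, IFN-γ and GW, 15 with IFN-γ and GW and 16 with IFN-γ. Probes differ in brightness, so such counts place signals on the scale of an array and do not rank transcripts. Irf7, a transcription factor of the interferon pathway that interferon itself induces, stood at 12.16, 12.14, 12.32 and 12.33 in the 4 cultures from SHP siRNA to untreated.

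**Figure D1:**
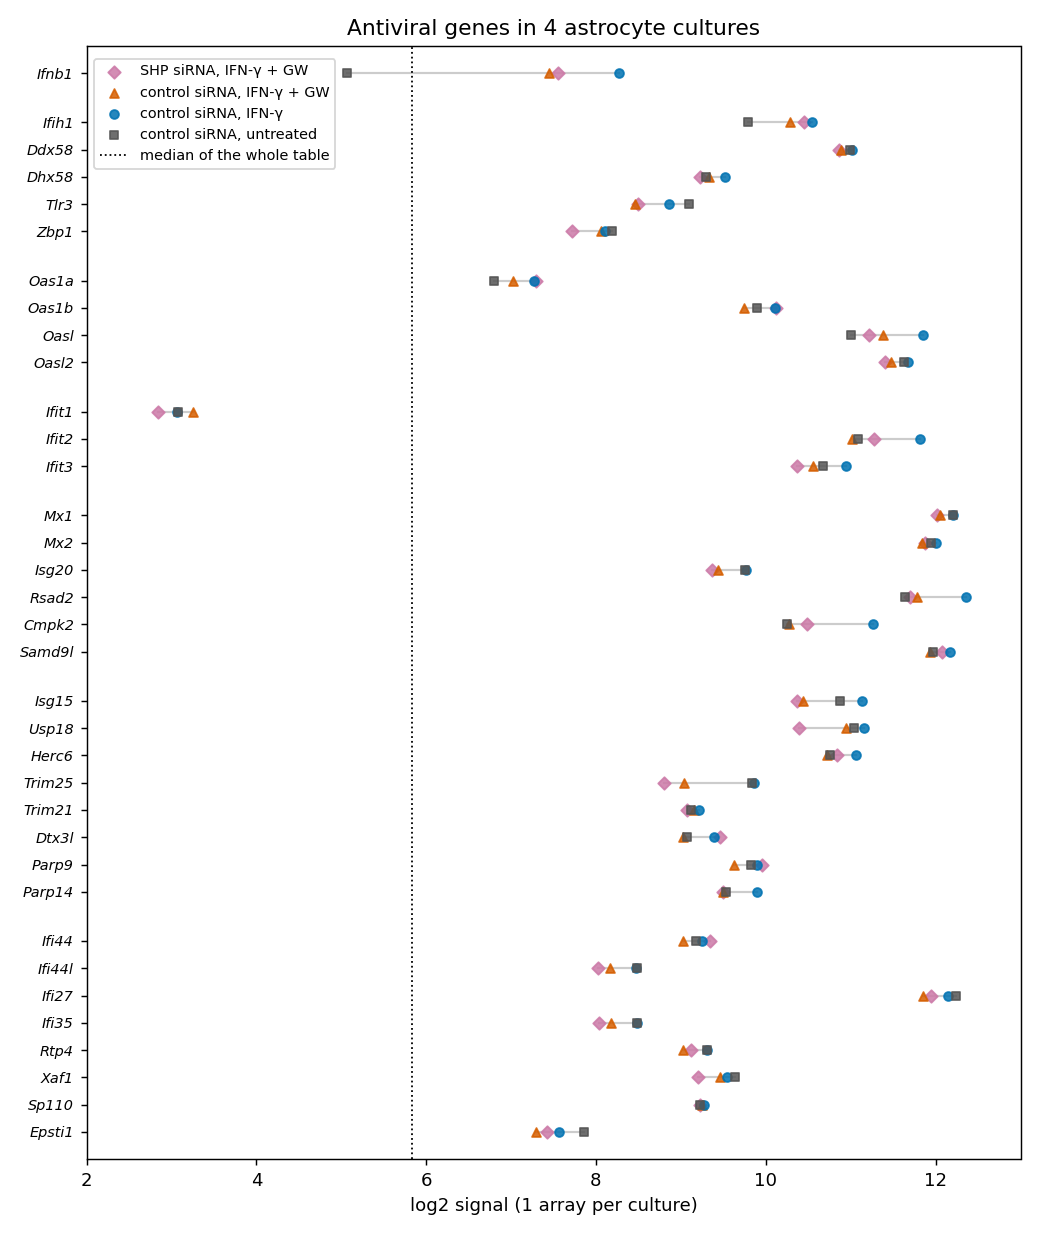
Log2 signal (horizontal axis) of the 35 measured antiviral genes (rows, grouped by role) in the 4 cultures, 1 array each. The grey line of a row spans its lowest and highest value, and the dotted line marks the table median of 5.83. Ifnb1 spans 3.20 log2 units, while Mx1, Mx2 and Sp110 hardly separate the cultures.

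The promoters are shown here because many of them hold the same short repeat. Windows from 250 bases before to 50 after the start site were found for 28 of the 37 genes in the RefSeq table of assembly GRCr8. Isg15, Usp18, Mx2, Ifit1, Ifit2, Ddx58, Dhx58, Zbp1 and Rtp4 were not in it. An ISRE-type repeat, the letters GAAA, any 2 bases and GAAA again, was searched on both strands and occurred in 18 of 28 antiviral promoters (64.3%), against 3.92% of all 33469 promoters of the table. With 1 or 2 bases between the GAAA runs the counts were 21 of 28 (75%) against 7.05%. The GAS-type letters TTCNNNGAA, which read the same on both strands, occurred in 5 of 28 (17.9%) against 8.87%, and those 5 were Oas1a, Oas1b, Bst2, Parp14 and Ifi44l. All 5 also had the ISRE-type letters, and in Bst2 both matches overlap. The NF-κB-type letters, GGGA, any 2 bases and TTCC, on both strands, occurred in 1 of 28 (3.57%) against 1.3%, and that gene was Ifnb1. These shares describe letters in a window and not bound sites.

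**Figure D2:**
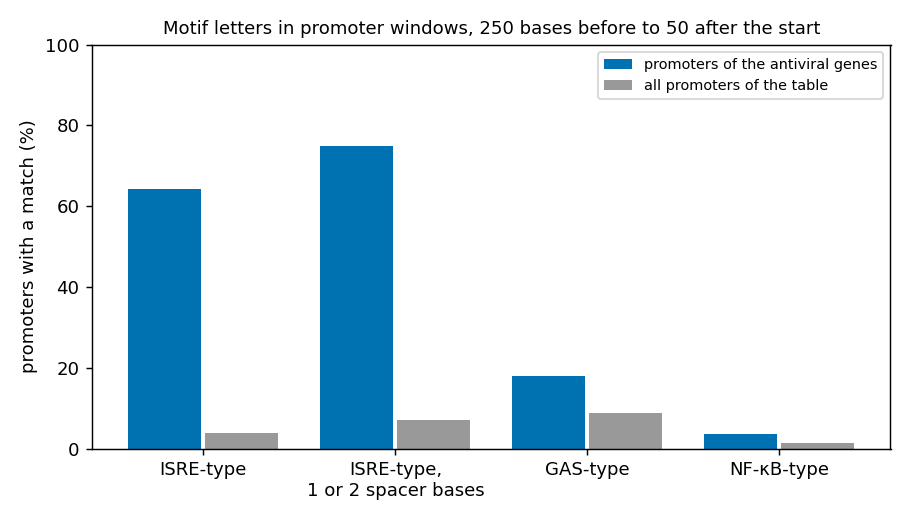
Share of promoter windows (percent, vertical axis) with at least 1 match to each set of letters, for 28 antiviral genes (blue) and all 33469 windows of the RefSeq table (grey). The ISRE-type letters stand at 64.3% and 3.92%.

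The next stretches show the ISRE-type repeat, in capitals, in antiviral genes of different roles, whose IFN-γ differences ran from -0.31 for Epsti1 to 0.75 for Ifih1. Positions count from the start site, the base before it being -1. The strand is that of the gene, and where capitals read TTTC on either side of the spacer the repeat lies on the other strand.
Ifih1, chr3:67683993-67684052, minus strand: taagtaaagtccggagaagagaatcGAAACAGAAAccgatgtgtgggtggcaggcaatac
Oas1a, chr12:41330400-41330465, plus strand: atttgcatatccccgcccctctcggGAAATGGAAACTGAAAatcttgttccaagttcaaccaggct
Oasl2, chr12:47383302-47383361, minus strand: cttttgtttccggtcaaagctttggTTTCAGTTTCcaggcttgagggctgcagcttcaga
Ifit3, chr1:241527257-241527316, plus strand: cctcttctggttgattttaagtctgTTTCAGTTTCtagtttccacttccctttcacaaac
Rsad2, chr6:48788233-48788292, minus strand: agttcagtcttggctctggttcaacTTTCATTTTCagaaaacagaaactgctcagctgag
Dtx3l, chr11:78320210-78320254, plus strand: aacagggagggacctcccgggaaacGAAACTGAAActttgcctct
Trim21, chr1:166399349-166399414, minus strand: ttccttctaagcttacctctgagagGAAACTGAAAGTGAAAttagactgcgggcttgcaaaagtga
Epsti1, chr15:59693341-59693400, plus strand: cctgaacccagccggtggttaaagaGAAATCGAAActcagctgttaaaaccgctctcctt
Oas1a and Trim21 hold 2 overlapping copies, and the Oas1a copies run from -41 to -26. The match of Dtx3l lies after its start site, from 11 to 20.

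The 250 bases before Ifnb1 and Cmpk2 are shown whole, because these were the 2 antiviral genes past 2-fold with IFN-γ and neither has the ISRE-type letters with 2 spacer bases. Capitals mark the NF-κB-type letters in Ifnb1, from -64 to -55, and GAAANGAAA with 1 spacer base, on the other strand, in Cmpk2, from -86 to -78 and from -47 to -39.
Ifnb1, chr5:108067488-108067737, minus strand: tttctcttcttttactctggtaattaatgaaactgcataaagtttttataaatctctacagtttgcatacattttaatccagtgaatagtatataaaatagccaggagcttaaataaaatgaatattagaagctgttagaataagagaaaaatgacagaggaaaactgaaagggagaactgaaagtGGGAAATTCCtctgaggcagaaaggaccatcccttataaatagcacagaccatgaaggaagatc
Cmpk2, chr6:48802600-48802849, plus strand: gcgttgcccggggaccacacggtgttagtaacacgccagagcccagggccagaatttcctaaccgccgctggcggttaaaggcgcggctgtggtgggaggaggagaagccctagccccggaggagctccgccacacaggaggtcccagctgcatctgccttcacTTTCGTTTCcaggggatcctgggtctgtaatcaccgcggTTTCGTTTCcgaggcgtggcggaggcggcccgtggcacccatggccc

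The first comparison asks what IFN-γ did by itself, set against the untreated culture. Ifnb1 stood far higher with IFN-γ, Cmpk2 stood 2.01-fold higher, and most of the other antiviral genes differed little. Of the 34 antiviral genes, 2 were at least 2-fold higher (5.88%), where 1.61% of all genes were. None was at least 2-fold lower (0 of 34), where 0.288% of all genes were. At 1.5-fold, 6 of 34 were higher (17.6%), against 3.02% of all genes. At 1.2-fold, 11 were higher (32.4%), against 8.4%, and 1 was lower (2.94%), against 9.64%. The median difference was 0.08 log2, against -0.04 over all genes, and 26 of 34 lay above 0 (76.5%), where 40.1% of all genes did. Ifnb1 passed the filter through the treated cultures, so its part in these counts follows from its difference. Without Ifnb1, 1 of 33 was at least 2-fold higher. Of those 33, 27 had a mean log2 signal of at least 9. Among all 2570 genes that bright, 3.31% were at least 2-fold higher, 4.94% at 1.5-fold and 8.95% at 1.2-fold, and 36.5% lay above 0.

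Ifnb1, the inducer, had a log2 signal of 7.55 with SHP siRNA, IFN-γ and GW, 7.45 with IFN-γ and GW, 8.27 with IFN-γ and 5.07 untreated. All 3 treated cultures stood above the untreated one by at least 2.38. The difference of 3.20 with IFN-γ, or 9.18-fold, was the 7th highest of 11790 genes. The untreated value lies below the table median, so the size of that fold is uncertain. Other type I and III interferon genes did not share this pattern. Of 10 listed, 7 had a probe and 3 passed the filter, Ifna2, Ifna4 and Ifnl3, with IFN-γ differences of -0.22, 0.07 and 0.20.

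Among the sensors of foreign nucleic acid, Ifih1, which encodes the RNA sensor MDA5, stood apart. It had 10.45 with SHP siRNA, IFN-γ and GW, 10.29 with IFN-γ and GW, 10.54 with IFN-γ and 9.79 untreated, so each treated culture was above the untreated one. Its IFN-γ difference was 0.75. Ddx58, which encodes the sensor RIG-I, lay between 10.86 and 11.01 in all 4 cultures. Dhx58, a regulator of both sensors, differed by 0.23 with IFN-γ, and Zbp1, a sensor of Z-form nucleic acid, by -0.08. Tlr3, the endosomal receptor for double-stranded RNA, ran the other way, with 8.49, 8.46 and 8.86 in the treated cultures from SHP siRNA to IFN-γ alone, against 9.10 untreated.

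Active oligoadenylate synthetases make a messenger that switches on RNase L against viral RNA. The 4 listed genes of this family, OAS-like ones included, all lay above 0 with IFN-γ, where 40.1% of all genes did. Oasl, an OAS-like protein, had 11.21, 11.38 and 11.85 in the treated cultures, in the order SHP siRNA, GW and IFN-γ alone, against 11.00 untreated. The difference with IFN-γ was 0.85, while its direct neighbour on the genome, Oasl2, differed by 0.04. Oas1a had 7.29, 7.02 and 7.27 in the same treated cultures and 6.80 untreated, and Oas1b 10.12, 9.74 and 10.11 against 9.90. All treated cultures lay above the untreated one for Oasl and Oas1a, but not for Oas1b. These paralogs are alike in sequence, and how far their probes share signal was not tested.

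The IFIT proteins hold back translation of viral RNA. Ifit2 had 11.27 with SHP siRNA, IFN-γ and GW and 11.01 with IFN-γ and GW. It had 11.82 with IFN-γ and 11.09 in the untreated culture, so the culture with IFN-γ alone was highest, 0.74 above the untreated one. Ifit3, next to it on the genome, had 10.37, 10.56 and 10.95 in the treated cultures and 10.67 untreated. Ifit1 stayed between 2.84 and 3.25 and did not pass the filter. That is well under the table median, where background may weigh on a value.

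Restriction factors and antiviral enzymes differed among themselves. Rsad2 encodes viperin, which makes a chain-terminating nucleotide, and Cmpk2 a mitochondrial nucleotide kinase. They are next to each other on the genome. Rsad2 had 11.70, 11.78 and 12.36 in the treated cultures from SHP siRNA to IFN-γ alone, against 11.64 untreated. Cmpk2 had 10.49, 10.27 and 11.26 in those cultures, against 10.25. In both, the IFN-γ culture stood above the 3 others, by 0.71 over the untreated one for Rsad2 and 1.01 for Cmpk2. The myxovirus resistance genes Mx1 and Mx2, whose products trap viral nucleocapsids in many mammals, differed by 0.01 and 0.05 with IFN-γ. Isg20, a 3′ exonuclease, differed by 0.00, and Samd9l, which restricts poxviruses, by 0.20 (its second, dimmer probe by -0.00).

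The ISG15 system tags proteins with a ubiquitin-like modifier, and all 8 of its genes and related ligases lay above 0 with IFN-γ, between 0.02 and 0.37, where 40.1% of all genes were above 0. Isg15, the modifier, had 11.13 with IFN-γ and 10.87 untreated. Usp18, which removes ISG15 and damps the type I receptor, differed by 0.12, and the ISG15 ligase gene Herc6 by 0.30. Parp14 and Dtx3l, an ADP-ribosyltransferase and a ubiquitin ligase, differed by 0.37 and 0.32, and their neighbour Parp9, the partner of Dtx3l, by 0.07. Trim25 and Trim21, ubiquitin ligases that act on RIG-I and on antibody-coated virus, differed by 0.02 and 0.09.

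The last group holds interferon-induced genes of less defined action, and 6 of its 8 lay below 0 with IFN-γ, where 59.8% of all genes did. Epsti1 was lowest, with 7.42, 7.29 and 7.56 in the treated cultures and 7.86 untreated, so all treated cultures were below. Ifi27 and the apoptosis gene Xaf1 both differed by -0.10. Ifi44, Ifi44l, Ifi35, Rtp4 and Sp110 differed by at most 0.07 in size. After cyclic loess or median centring of the arrays, Ifi44l, Ifi35 and Rtp4 lay above 0, which made 29 of the 34 genes above 0. After quantile normalization Mx1 and Ddx58 lay below 0, which left 24. Of all genes, 52.2% lay below 0 after cyclic loess, 57% after median centring and 57.9% after quantile normalization.

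**Figure D3:**
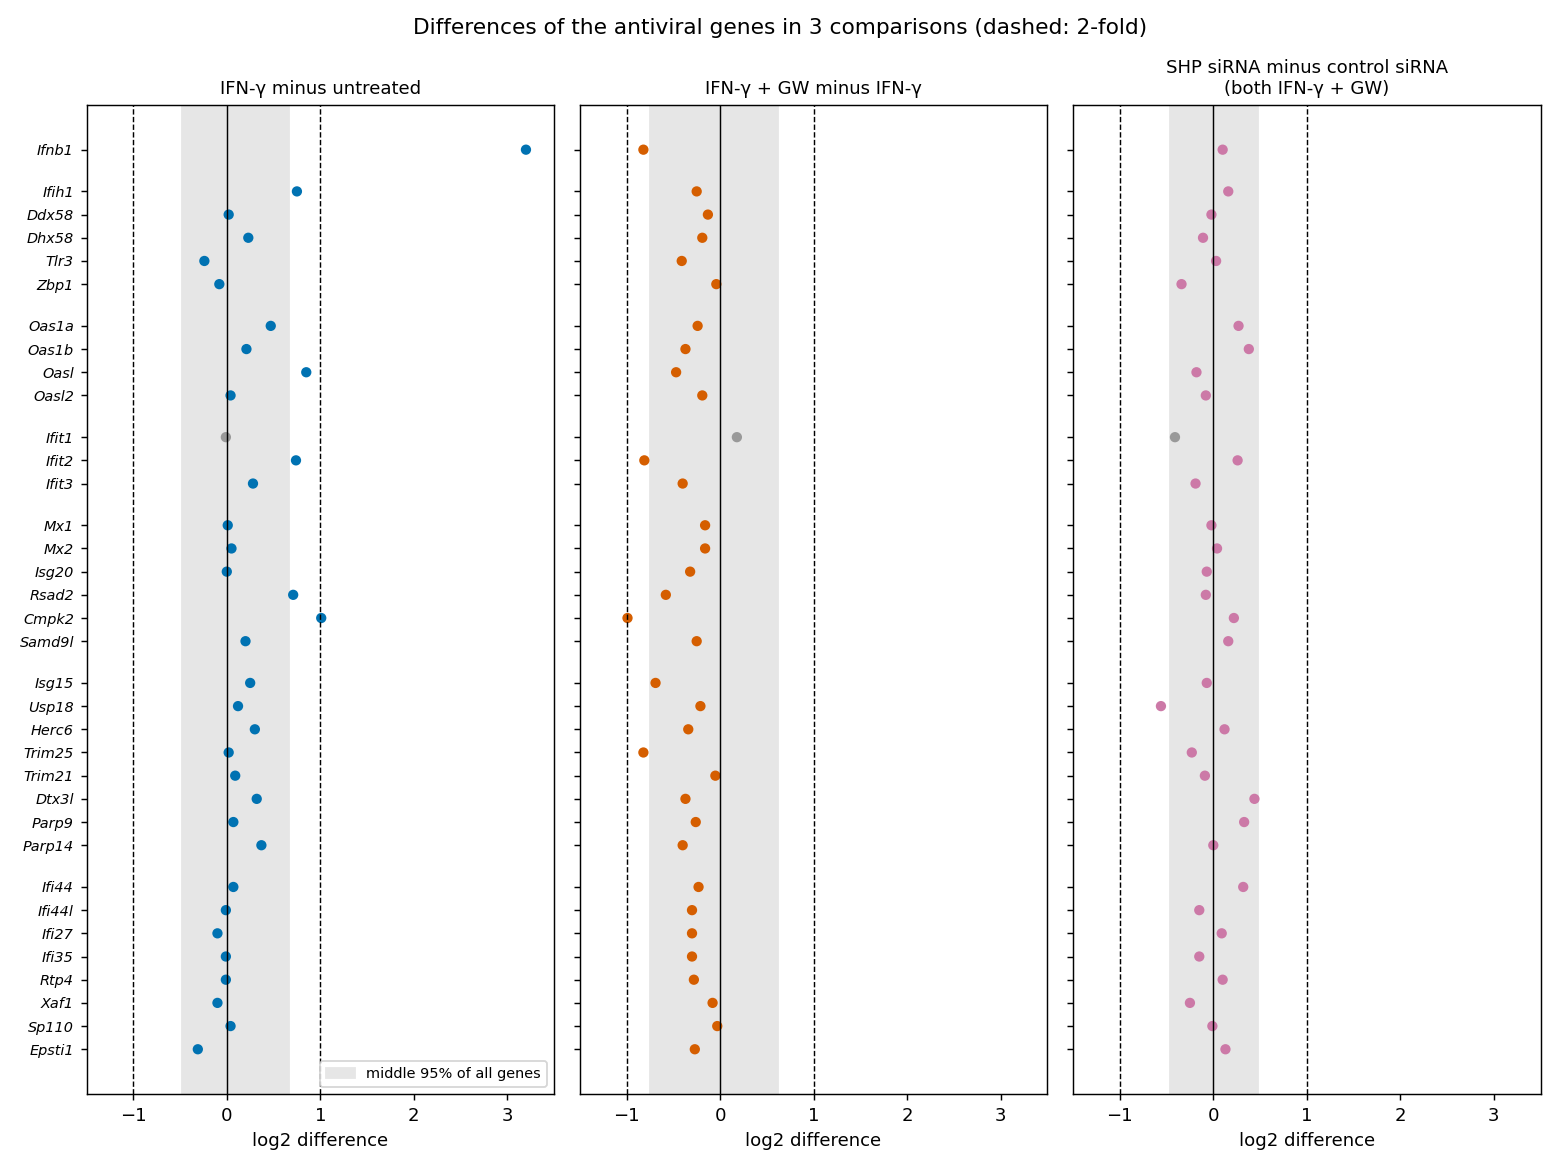
Log2 differences (horizontal axis) of the 35 genes in the 3 comparisons, 1 array against 1 array. The band is the middle 95% of 11790 genes, dashed lines mark 2-fold, and grey points are Ifit1, which did not pass the filter. With IFN-γ Ifnb1 is at 3.20 and Cmpk2 at 1.01. With GW all 34 coloured points lie below 0 in the values as deposited (31 or 30 after other scalings).

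Genes around this programme were set beside it. Of 12 genes of the type I receptor, ISGF3 and their inhibitors, 10 had a probe and passed the filter. Their median with IFN-γ was 0.03, with 1 past 2-fold upwards and 0 downwards. The higher one was Socs1, a feedback inhibitor of JAK kinases, at 1.90. Ptpn6, a phosphatase that damps cytokine signalling, was lowest at -0.64, and Ifnar1, Stat2 and Irf9 differed by 0.08, 0.06 and -0.03. Of 16 measured genes that lead to Ifnb1 induction, Nfkb1, an NF-κB subunit gene, was 2-fold higher at 1.08 and 0 were 2-fold lower. Cd14, Rela and Jun were at 0.89, 0.79 and 0.64, and the list median was 0.07. The IFN-γ response list had a median of 1.02 over 16 genes, of which 9 stood 2-fold or more above the untreated culture and 0 below. Irf1, the transcription factor, was highest at 2.63. The NF-κB target list had a median of 2.52, and all 15 measured genes were past 2-fold upwards. Of all genes, 1.61% were at least 2-fold higher. These lists were chosen with earlier results of these data known, so their counts and medians may follow in part from that choice. Ifngr1 and Ifngr2, which encode the receptor for IFN-γ, differed by 0.10 and 0.84. The microglia markers had a median of -0.36, with 15 of 17 below 0, where 59.8% of all genes were. The part of these markers in the antiviral values was not tested.

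The second comparison asks what GW added to IFN-γ, against IFN-γ alone. All 34 antiviral genes past the filter stood lower with GW in the values as deposited, by less than 2-fold, and 31 or 30 did after other scalings. None was at least 2-fold lower (0 of 34), where 0.95% of all genes were, and none 2-fold higher, where 0.958% were. At 1.5-fold, 5 of 34 were lower (14.7%), against 4.97% of all genes, and at 1.2-fold 20 were (58.8%), against 22.5%. As deposited, all 34 lay below 0 (100%), where 57.8% of all genes did. So did 67.8% of the 2570 genes with a mean log2 signal of at least 9. That group was added because bright genes as a whole stood lower with GW in the deposited values. The median was -0.29, against -0.05 over all genes and -0.11 over the bright ones. The bright-gene median was -0.05 after quantile normalization, -0.01 after cyclic loess and -0.03 after median centring. After quantile normalization 31 of the 34 lay below 0, where 53.2% of all genes and 58.4% of the bright ones did. After cyclic loess 30 did, against 52.5% and 52.3%, and after median centring 30, against 45.7% and 55.3%. Sp110, Trim21 and Zbp1 turned sign under each of these, and Xaf1 under cyclic loess and centring.

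The 5 genes past 1.5-fold were Cmpk2, Trim25, Ifnb1, Ifit2 and Isg15. Cmpk2 had 10.27 with IFN-γ and GW against 11.26 with IFN-γ, 1.99-fold lower and just short of 2-fold. Ifnb1 had 7.45 against 8.27, a difference of -0.82, and Ifit2 had 11.01 against 11.82, or -0.81. Isg15 differed by -0.69, with 10.44 against 11.13. Rsad2, at 11.78 against 12.36, came next with -0.58.

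Trim25 followed another course from Cmpk2, Ifnb1, Ifit2 and Rsad2. It had 8.80 with SHP siRNA, IFN-γ and GW, 9.04 with IFN-γ and GW, 9.86 with IFN-γ and 9.84 untreated. Both cultures with GW thus stood apart below both without it, by at least 0.81 in every pairing, and IFN-γ alone differed from no treatment by 0.02. Isg15 was split the same way, with 10.37 and 10.44 in the cultures with GW, against 11.13 with IFN-γ and 10.87 untreated. Tlr3, Isg20 and Ifi27 were among others split so, by smaller gaps than Trim25. Cmpk2, Ifit2 and Rsad2 stood high in the IFN-γ culture and near their untreated level with GW. Their differences between IFN-γ with GW and no treatment were 0.02, -0.07 and 0.13. For Ifih1 and Oasl they were 0.50 and 0.38. These differences share arrays with the comparisons before them.

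By role, the median difference with GW was -0.60 for the 2 IFIT genes past the filter, beside -0.82 for Ifnb1. It was -0.19 for 5 sensors, -0.31 for 4 oligoadenylate synthetase genes and -0.28 for 6 restriction proteins and enzymes. It was -0.35 for 8 genes of the ISG15 and ligase group and -0.28 for the 8 other interferon-induced genes. Those 8 lay between -0.30 and -0.03, although with IFN-γ none of them stood more than 0.07 above the untreated culture. Of the sensors Tlr3 was lowest at -0.41. Mx1 and Mx2, both at -0.16, lay close to the bright-gene median.

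**Figure D4:**
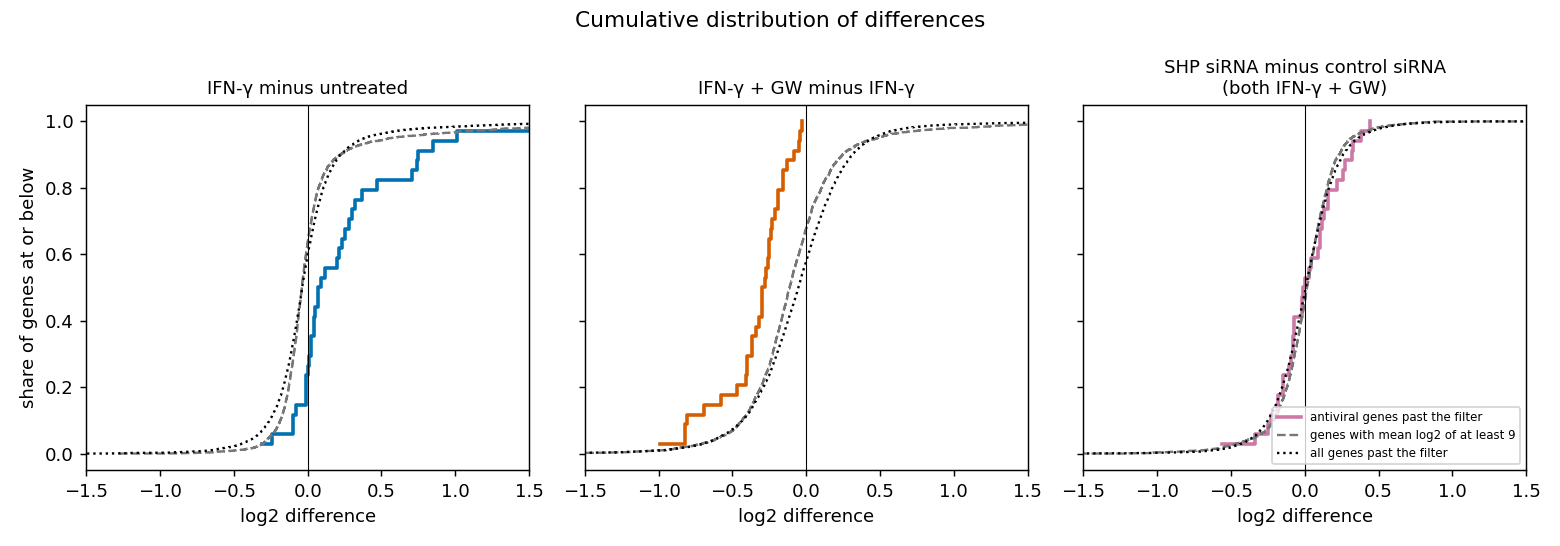
Cumulative share of genes (vertical axis) at or below each log2 difference (horizontal axis, cut at 1.5 either way, which hides Ifnb1 at 3.20) for the 34 antiviral genes, the 2570 genes with a mean of at least 9 and all 11790 genes. With GW the antiviral median of -0.29 lies left of the medians of -0.11 and -0.05, and with SHP siRNA -0.01 stands beside 0.01 and 0.01.

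Among the surrounding genes with GW, all 10 of the receptor and ISGF3 list lay below 0 as deposited, with Socs1 at -1.87, Ifnar1 at -0.49 and a median of -0.12. In the induction list 1 was past 2-fold upwards and 1 downwards, Jun, an AP-1 subunit gene, at 2.02 and Cd14 at -1.25, with a median of -0.04. The IFN-γ response genes had a median of -0.59, with 5 of 16 at least 2-fold lower and 1 higher, Socs3 at 1.76. Cxcl9, a chemokine gene, was lowest at -2.86. The NF-κB targets had a median of -0.49, with 3 of 15 at least 2-fold lower and 0 higher. Of the microglia markers 15 of 17 lay below 0 (median -0.46), and of the astrocyte markers 7 of 10 (median -0.21). Below 0 were 57.8% of all genes and 67.8% of the bright ones. Of all genes, 0.95% were at least 2-fold lower and 0.958% at least 2-fold higher. The part of both marker lists in the lower antiviral values was not tested.

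The third comparison asks what the SHP siRNA did, set against the control siRNA in cultures that both had IFN-γ and GW. The antiviral genes showed no common direction. None of 34 was at least 2-fold higher, where 0.144% of all genes were, and none 2-fold lower, where 0.263% were. At 1.2-fold, 5 were higher (14.7%), against 9.76% of all genes, and 2 lower (5.88%), against 9.15%. Of the 34, 16 lay above 0 (47.1%), where 51.5% of all genes did, and the median was -0.01 against 0.01. Ifnb1 had 7.55 with SHP siRNA and 7.45 with control siRNA.

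Single genes at the edges ran opposite ways. Usp18 was lowest, with 10.39 with SHP siRNA, against 10.95 with control siRNA, 11.16 with IFN-γ alone and 11.04 untreated. The SHP siRNA culture stood below the 3 others, and the difference of -0.56 was the 167th lowest of 11790. The other Usp18 probe differed by -0.48; whether both probes share sequence is not known here. Zbp1 came next at -0.34. Dtx3l was highest at 0.44, with 9.46 with SHP siRNA and 9.02 with control siRNA, followed by Oas1b at 0.38, Parp9 at 0.33 and Ifi44 at 0.32. Parp9 and Dtx3l lie next to each other on the genome, and Parp14, the next gene on, differed by -0.00. Of these 4 higher genes, all stood above their level in the IFN-γ culture, by 0.01 for Oas1b to 0.09 for Ifi44. They were picked as high on the same SHP siRNA array, so these gaps follow in part from that choice. The gaps are also small, as median centring alone raised the differences between the SHP siRNA culture and the IFN-γ culture by 0.08.

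In the same comparison the receptor and ISGF3 list had a median of 0.03, with Socs1 2-fold higher at 1.15. The induction list had a median of -0.02, with 0 at 2-fold, Jun at -0.64, Myd88, an adaptor of Toll-like receptors, at -0.51, and Nfkb1 at 0.50. The IFN-γ response genes had a median of 0.44, with 2 of 16 at least 2-fold higher, Cxcl9 at 2.31 and Socs1, and 0 lower. The NF-κB targets had 0.30 with 0 at 2-fold. The microglia marker median was 0.17 with 14 of 17 above 0. The meningeal and fibroblast markers had 6 of 6 above 0 (median 0.60), with the matrix gene Postn at 1.43. The part of any marker list in the antiviral values was not tested.

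**Figure D5:**
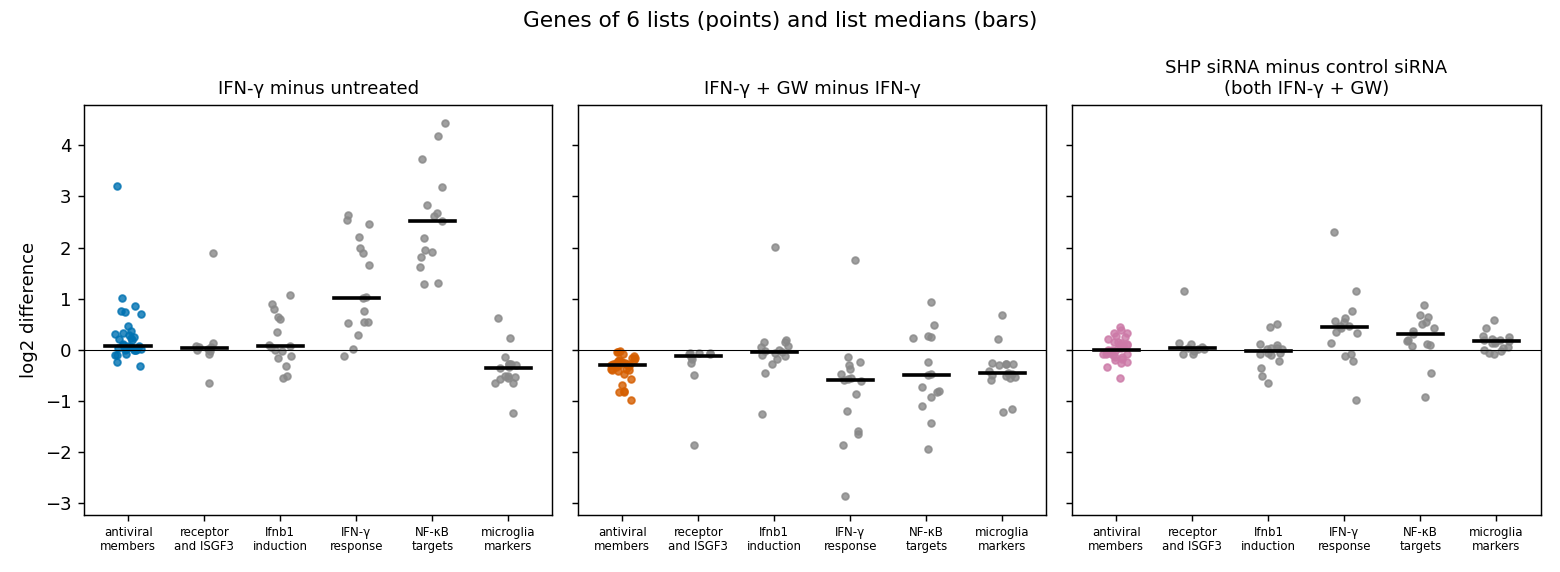
Log2 differences (vertical axis) of the genes past the filter in 6 lists (points, spread sideways for view) with list medians (bars), in the 3 comparisons. All lists were chosen with earlier results of these data known. With IFN-γ the antiviral median is 0.08 and that of NF-κB targets 2.52. With SHP siRNA the antiviral median is -0.01.

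Against no treatment, the culture with SHP siRNA had 1 of 34 antiviral genes at least 2-fold higher, where 1.59% of all genes were, and 1 lower, where 0.882% were. These were Ifnb1, 5.59-fold higher, and Trim25, 2.06-fold lower. Of the 34, 20 lay below 0 (58.8%), against 59.2% of all genes. The culture with control siRNA, IFN-γ and GW had 1 higher, Ifnb1 at 5.20-fold, where 1.65% of all genes were, and 0 lower, where 0.84% were. There 25 lay below 0 (73.5%), against 60.3% of all genes. After cyclic loess these counts below 0 were 16 and 16, against 51.9% of all genes in either comparison. The sign of the small differences thus hangs on the scaling.

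The differences were also set beside the promoter letters, as a description. Leaving out Ifnb1, 16 measured genes with the ISRE-type letters had a median IFN-γ difference of 0.08, between -0.31 and 0.75, and 9 without them had 0.07, between -0.24 and 1.01. Of those 9, Cmpk2, Samd9l and Ifi35 hold the repeat with 1 spacer base. With GW the medians were -0.29 with the letters and -0.34 without, and with SHP siRNA -0.01 and 0.03. The 4 measured genes with GAS-type letters had a median IFN-γ difference of 0.29, between -0.01 and 0.47, against 0.07 in the 21 without. The ranges overlap in each case, and 4 genes are few.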

How the data were processed

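Trizol-extracted total RNA was turned into sense cDNA and hybridised after biotin labelling, per the labels' protocols. The authors deposited 1 value per probe and array for 29489 probes, read here as log2 signal because values run from 1.14 to 13.4. On log base, background correction and normalization the authors' steps were not given in the sources used here. Of the probes 18511 carry 1 gene symbol, 575 several and 10403 were not named. The probe with the highest mean stood for a gene (18166 genes), and genes reaching 5.83 in any array were kept (11790). Comparisons subtract the log2 values of 1 array from those of another, with 2-fold as threshold and no test. Precision is limited by the number of arrays. The gene list and all other lists were chosen with earlier results of these data known. Named genes are all listed antiviral genes, up to 4 per other list and comparison with the greatest size of difference, Nr0b2, Ifngr1 and Ifngr2; other genes named (Gfap, Stat2, and Irf9 with IFN-γ) were chosen after their values were seen. Endothelial, lymphocyte, neuron and oligodendrocyte markers (2, 1, 4 and 7 past the filter) had IFN-γ medians of 0.14, -0.02, 0.13 and 0.04, GW medians of -0.38, 0.15, 0.13 and -0.03, and SHP siRNA medians of 0.44, -0.02, -0.05 and 0.11. Alternatives were quantile normalization and cyclic loess (limma 3.58.1, R 4.3.3), median centring, other filters, probe averaging, other thresholds, the mean of the list, and the list without Ifnb1; the comparison with genes of a mean of at least 9 was chosen after seeing the data. The counting and the motif search were tested on simulated data. Promoter sequences and start sites are from RefSeq, assembly GRCr8.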

Additional observations from a re-analysis of the deposited data

How the results depend on the processing

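Ifnb1 and Cmpk2 kept their direction in all 3 comparisons under every scaling, filter and probe rule that was run. With IFN-γ, the number of antiviral genes at least 2-fold higher was 2 (1.61% of all genes), and 1 without Ifnb1. It was 6 at 1.5-fold (3.02% of all genes) and 11 at 1.2-fold (8.4%). At 1.2-fold 1 gene was lower (9.64% of all genes), against 0 at 2-fold (0.288%). The number below 0 was 8 (59.8% of all genes), and 5 after cyclic loess or median centring (52.2% and 57% of all genes). The mean in place of the median of 0.08 was 0.28. With GW the number lower was 0 at 2-fold (0.95% of all genes), 5 at 1.5-fold (4.97%) and 20 at 1.2-fold (22.5%). The median of -0.29 was -0.23 after quantile normalization and after cyclic loess, -0.21 after median centring, and the mean was -0.34. With SHP siRNA 5 genes were higher and 2 lower at 1.2-fold (9.76% and 9.15% of all genes). At 2-fold these counts were 0 and 0 (0.144% and 0.263%). Counts were taken as alike within 1.5 times and medians within 0.05. No paired analysis was possible because each group has 1 array. A reading as linear values was not run, because the values were read as log2 from their range. Counts at lower thresholds come from the threshold itself; the cause of the scaling shifts was not tested. No detection call was used, so low values such as those of Ifit1 or untreated Ifnb1 may sit at background.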

Other observations

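The probes of Ifi35 and Ifi44l gave nearly the same value in every culture. Ifi35 had 8.03, 8.18, 8.48 and 8.48 and Ifi44l 8.02, 8.17, 8.47 and 8.48, in the order SHP siRNA with IFN-γ and GW, IFN-γ with GW, IFN-γ and untreated. The greatest gap was 0.0084 log2. Among all pairs of the 11790 genes, 12 lay within 0.01 in all 4 arrays. Whether the probes share sequence was not tested.

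Differences with no array in common were set side by side over the antiviral genes, which are not independent replicates. The IFN-γ and SHP siRNA differences had a Pearson r of 0.18 and a Spearman rho of 0.32 over 34 genes, and 0.23 and 0.30 over 33 without Ifnb1. Over all 11790 genes they had 0.15 and 0.08. The GW difference and that of the SHP siRNA culture against the untreated one had an r of -0.26 and a rho of -0.14 over the 34. Without Ifnb1 they were 0.02 and -0.07 over 33, and over all genes 0.40 and 0.47.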
